A study of Rattus norvegicus with 12 samples.

Results

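The transcripts described here encode heat shock chaperones of rat hippocampal neurons, 10 genes chosen by name: Hsph1, Hspa4, Hspa8, Hspa1b, Hspb1, Hsp90aa1, Hsp90ab1, Dnaja1, Dnajb1 and Hspd1. Array probes were assigned to them through RefSeq transcript accessions, and 14 probes of 8 of the genes were found among 30367 probes. Hspa1b and Dnajb1 had no probe with a matching accession and were not analysed here. The product of Hspd1 is the mitochondrial chaperonin HSP60, so that the set is not cytosolic in all its members. The 8 measured members are part of 21245 targets tested.

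The cultures were primary hippocampal neurons of Wistar rat embryos of day 18, kept for 14 to 15 days in vitro. They were left untreated or received 50 µM GYKI-52466, an antagonist of AMPA-type glutamate receptors, together with 10 µM MK-801, an antagonist of NMDA-type receptors. The mixture, called blockade below, acted for 9 h or 26 h, and both times had their own untreated cultures. Each of the 4 groups (untreated 9 h, blocked 9 h, untreated 26 h, blocked 26 h) comprised 3 independent cultures and 3 single-colour arrays. All groups share strain, age in culture and medium, and no vehicle is named for the untreated cultures.

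Heat shock chaperones bind unfolded or partly folded proteins and keep them from aggregating. HSP70 proteins work in cycles of ATP use that J-domain proteins start and that HSP110 and BAG proteins reset by nucleotide exchange, and HSP90 proteins take over clients such as kinases and steroid receptors. Heat shock factor 1 (Hsf1) drives many of these genes by binding heat shock elements, inverted repeats of GAA and TTC. In neurons the HSP70 family member HSC70, the product of Hspa8, also strips clathrin from synaptic vesicles.

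Levels are log2 processed signals from which the 75th percentile of that array was subtracted, so that 0 lies at that percentile and 1 unit is a doubling. They show how a probe varies between arrays and do not rank one gene against another. A gene with several probes is represented by its brightest. Differences came from limma across all 12 arrays, were adjusted by the Benjamini-Hochberg method over all genes tested, and passed at an adjusted p under 0.05. Array scan day crossed the groups: untreated 9 h and blocked 26 h arrays were scanned on day 1, and blocked 9 h and untreated 26 h arrays on day 2. The effect of blockade averaged over both times is balanced over the days. The effect at a single time compares arrays of different days, and there blockade and scan day cannot be told apart.

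On each array 77.6% to 86.8% of spots other than controls were well above background. The treatment itself was visible in 15 measured genes that neuronal activity is known to induce, of which 13 were lower under blockade on average and 0 were higher (median log2 difference -1.75). Bdnf, which codes for a neurotrophin, differed by -2.59. All 10 pan-neuronal markers were well above background on every array. At 9 h their summed level ran from 5.34 to 5.81 in untreated and from 5.65 to 5.72 in blocked cultures. At 26 h it ran from 5.63 to 5.83 in untreated and from 5.53 to 5.57 in blocked cultures, without overlap. Those 26 h groups were scanned on different days. Of the 10 markers, 1 was higher and 0 were lower at 26 h in limma, where 16.4% of all genes passed. Markers of other cells were present too: 9 of 10 astrocyte, 10 of 10 oligodendrocyte lineage, 10 of 10 microglia and 10 of 11 meningeal, fibroblast and vascular genes were measured. In such mixed cultures, fewer cells of a type and less RNA per cell cannot be told apart.

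Upstream sequences are shown for 4 members, since members that passed a test of blockade and members that did not can be set side by side. Hsph1 passed the test averaged over both times. The main probe of Hsp90ab1 did not pass that test but passed at each single time, in opposite directions, where blockade and scan day cannot be told apart. Hspa8 and Hspd1 are further members with heat shock elements in this stretch. They are the 250 bases before the annotated RefSeq start on GRCr8, 5′ to 3′ on the strand of the gene, with matches to a 3-unit heat shock element or a cyclic AMP response element in capitals. The positions are chr12:10427118-10427367 (+ strand) for Hsph1, chr8:50080264-50080513 (+ strand) for Hspa8, chr9:64084038-64084287 (- strand) for Hspd1 and chr9:22930173-22930422 (+ strand) for Hsp90ab1.
Hsph1: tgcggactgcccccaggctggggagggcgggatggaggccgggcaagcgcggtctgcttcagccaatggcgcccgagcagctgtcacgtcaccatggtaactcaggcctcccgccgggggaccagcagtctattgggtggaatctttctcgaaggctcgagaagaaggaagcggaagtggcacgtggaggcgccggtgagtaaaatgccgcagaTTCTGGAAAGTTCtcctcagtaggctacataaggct
Hspa8: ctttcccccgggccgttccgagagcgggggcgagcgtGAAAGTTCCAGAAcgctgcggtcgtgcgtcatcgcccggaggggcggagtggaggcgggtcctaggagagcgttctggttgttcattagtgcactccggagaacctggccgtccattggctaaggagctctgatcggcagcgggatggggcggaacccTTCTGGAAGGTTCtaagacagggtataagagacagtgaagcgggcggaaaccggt
Hspd1: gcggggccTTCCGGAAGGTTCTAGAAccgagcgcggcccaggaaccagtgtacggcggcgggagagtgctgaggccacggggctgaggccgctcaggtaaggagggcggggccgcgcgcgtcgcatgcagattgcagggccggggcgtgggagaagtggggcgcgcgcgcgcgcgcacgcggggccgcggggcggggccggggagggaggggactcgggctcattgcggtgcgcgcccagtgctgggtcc
Hsp90ab1: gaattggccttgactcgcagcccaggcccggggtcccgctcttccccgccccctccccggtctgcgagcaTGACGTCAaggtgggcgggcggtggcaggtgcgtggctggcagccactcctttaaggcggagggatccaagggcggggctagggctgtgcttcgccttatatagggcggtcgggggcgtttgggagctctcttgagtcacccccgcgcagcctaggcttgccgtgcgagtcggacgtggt

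The motifs searched on both strands were 3 alternating units of GAA and TTC (either first), each parted by NN, as the 3-unit heat shock element and TGACGTCA as the cyclic AMP response element, in windows from 250 bases before to 50 after the start. A 3-unit element was found in 4 of the 7 measured members with a window, against 0.798% of 33469 promoter windows. Hsph1 held 1 match, from -36 to -24. Hspa8 held 2 matches, from -213 to -201 and from -55 to -43. In Hspd1, 2 matches overlapped, from -242 to -230 and from -237 to -225. The match of Dnaja1 lay past the start, from 10 to 22. Hsp90ab1 held no 3-unit element, nor did Hspa4 and Hspb1. Hsp90ab1 was the only one of the 7 with a cyclic AMP response element, from -180 to -173, a motif found in 1.83% of windows. Hspd1 lies head to head with Hspe1, which codes for its co-chaperonin HSP10. The starts of this pair are 290 bases apart and their windows share 211 bases on opposite strands, so that the same matches lie in both. These are matches of letters in the reference and not measured binding sites.

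Averaged over both times, blockade left most of the set without a detected change. Of the 8 measured members, 1 was lower and 0 were higher, where 4.45% of all genes passed, 2.23% higher and 2.22% lower. The median difference of the members was -0.02, and that of all genes was -0.02 (0.00 for the 7 members without the saturated Hspa8). No member had blocked and untreated arrays that did not overlap, a pattern seen in 1.45% of all genes. The member that passed was Hsph1, and its 95% confidence interval ran from -0.58 to -0.19. For the other members apart from Hspa8 the interval was narrowest in Hspd1 (-0.20 to 0.10) and widest in Hspb1 (-1.46 to 0.80).

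**Figure D1:**
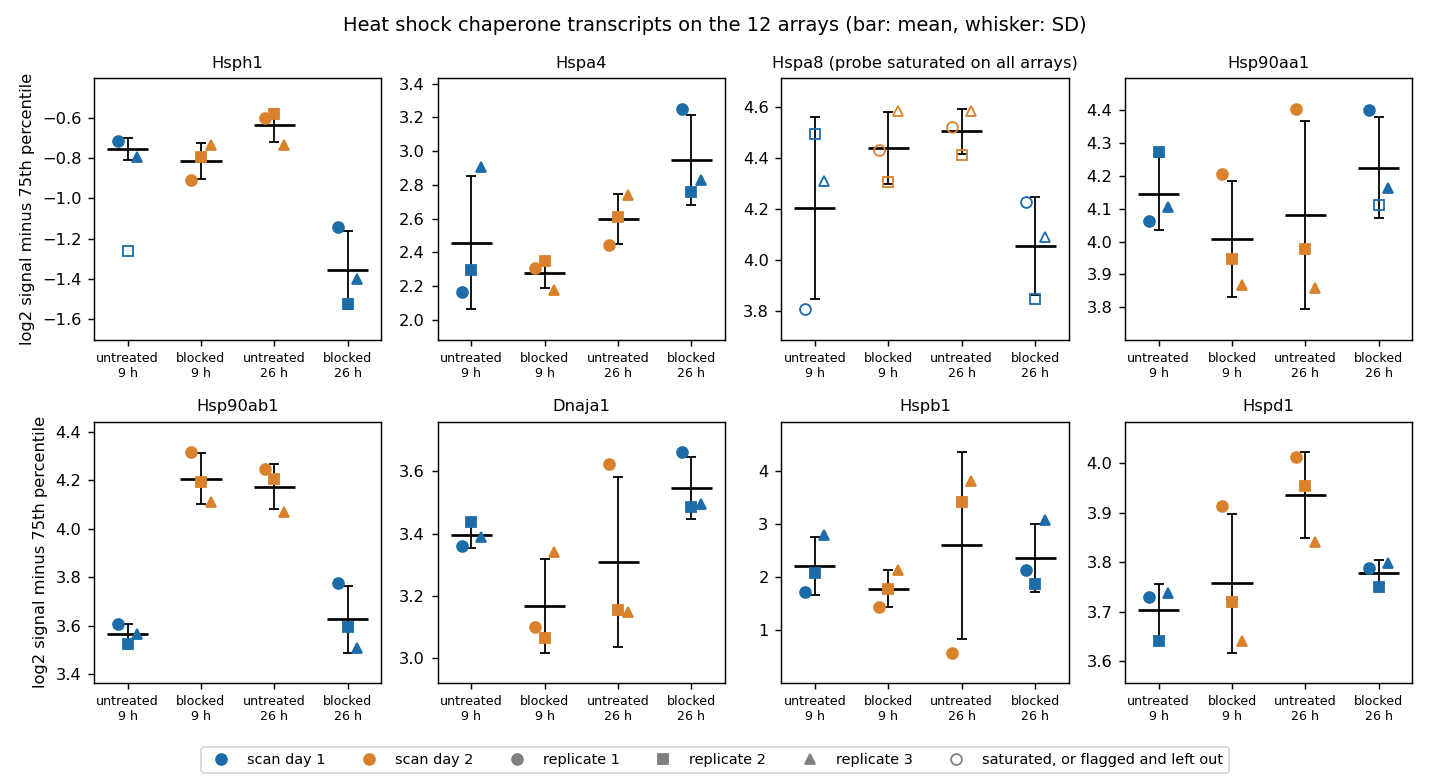
Level of each measured member on the 12 arrays, as log2 signal less that array's 75th percentile (y axis, a scale of its own in each panel), by group (x axis), with colour for scan day, shape for replicate number, a bar for the mean and whiskers for the SD of 3 arrays (2 in untreated 9 h for Hsph1, where the open square was left out). Hsph1 is lowest in blocked 26 h cultures, the main probe of Hsp90ab1 separates by scan day, and Hspb1 varies most between cultures.

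Hsph1 codes for HSP105, an HSP110 protein that acts as nucleotide exchange factor of HSP70. Its levels in untreated 9 h cultures were -0.72 and -0.79, the spot of replicate 2 being left out because the scanner software marked it as an outlier (-1.26). The blocked 9 h cultures gave -0.91, -0.80 and -0.74. The untreated 26 h cultures gave -0.60, -0.58 and -0.73, and the blocked 26 h cultures gave -1.14, -1.53 and -1.40. The last group lay below every other value used, the untreated 9 h values overlapped both other groups, and the blocked 9 h values lay just below the untreated 26 h ones (highest -0.74, lowest -0.73). From highest to lowest, the group means were -0.64 ± 0.08 (SD, n = 3) in untreated 26 h, -0.76 ± 0.05 (SD, n = 2) in untreated 9 h, -0.82 ± 0.09 (SD, n = 3) in blocked 9 h and -1.36 ± 0.20 (SD, n = 3) in blocked 26 h cultures. Only the last step of this order passed the test, blocked 26 h against blocked 9 h (-0.54, SE 0.12, limma with Benjamini-Hochberg adjusted p = 0.00959), and those groups were scanned on different days.

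Blockade lowered Hsph1 by 0.39 on the log2 scale on average (SE 0.087, limma with Benjamini-Hochberg adjusted p = 0.0377), a level 1.31-fold lower. This call was lost in 10 of 12 fits that left out 1 array (adjusted p up to 0.102 in limma), all but those without untreated 9 h replicate 2, which has no value used here, or blocked 26 h replicate 1, and with the marked spot kept the difference was -0.30 (adjusted p = 0.172 in limma). At 26 h the difference was -0.72 (SE 0.12, adjusted p = 0.00491 in limma), and at 9 h it was -0.06 (SE 0.13, adjusted p = 0.795 in limma). Within scan day 1, blocked 26 h cultures were lower than untreated 9 h cultures by -0.60 (limma with Benjamini-Hochberg adjusted p = 0.0159). Within scan day 2, blocked 9 h cultures differed from untreated 26 h cultures by -0.18 (limma with Benjamini-Hochberg adjusted p = 0.504). In both comparisons within a day, the blocked and untreated cultures also differ in time. The call at 26 h held in 12 of 12 fits without 1 array, and was lost without all arrays of replicate number 2 (-0.60, adjusted p = 0.207 in limma) or 3 (-0.74, adjusted p = 0.0890).

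Hspa4 codes for another HSP110 protein, APG-2. Untreated 9 h cultures gave 2.17, 2.30 and 2.91, and blocked 9 h cultures 2.31, 2.35 and 2.18. Untreated 26 h cultures gave 2.44, 2.61 and 2.74, and blocked 26 h cultures 3.25, 2.76 and 2.83. The blocked 26 h arrays were the higher side at that time without overlap, whereas the groups at 9 h overlapped. The difference averaged over both times was 0.09 (95% confidence interval -0.22 to 0.39). Between the times, Hspa4 differed by 0.40 (SE 0.14, limma with Benjamini-Hochberg adjusted p = 0.0861), and among blocked cultures alone it was higher at 26 h by 0.67 (SE 0.20, adjusted p = 0.0315 in limma). This last comparison spans both scan days.

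Hspa8, the constitutive HSC70, was too bright to be read by its main probe. That probe and a second one were saturated on all 12 arrays, so that no fold is given for them. The lowest values of the main probe, 3.81 in untreated 9 h replicate 1 and 3.85 in blocked 26 h replicate 2, came from the arrays with the highest 75th percentiles, 4649 and 4643 intensity units. Of its 4 probes, 2 were saturated on no array. The brighter of these, A_64_P096381, gave 2.68, 3.29 and 3.24 in untreated 9 h, 2.62, 2.63 and 3.13 in blocked 9 h, 3.70, 3.14 and 3.46 in untreated 26 h, and 2.87, 2.97 and 3.15 in blocked 26 h cultures. Blocked cultures had the lower mean at both times and overlapped the untreated ones on average. The averaged difference was -0.36 (SE 0.15, limma with Benjamini-Hochberg adjusted p = 0.253 over all kept probes). The other unsaturated probe, A_64_P014723, differed by -0.35 (SE 0.15, adjusted p = 0.267 in limma). Both intervals lay below 0 before adjustment, from -0.68 to -0.03 and from -0.69 to -0.02, and neither passed the test.

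**Figure D2:**
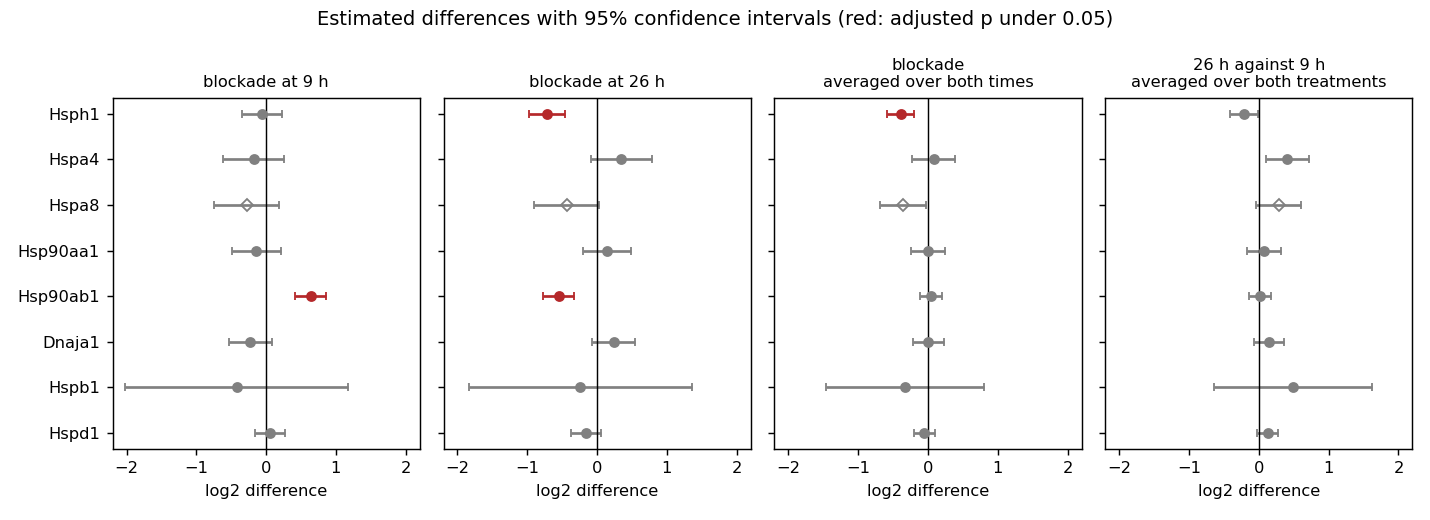
Estimated log2 differences of the 8 measured members (x axis) with 95% confidence intervals, for blockade at 9 h, blockade at 26 h, blockade averaged over both times and 26 h against 9 h. Red marks an adjusted p under 0.05 in limma; the open diamond for Hspa8 is its brightest unsaturated probe, adjusted over all kept probes. The main probe of Hsp90ab1 lies at 0.64 at 9 h and -0.55 at 26 h, with 0.05 on average.

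The HSP90 genes code for the inducible HSP90 alpha (Hsp90aa1) and the constitutive HSP90 beta (Hsp90ab1). The main probe of Hsp90ab1 gave 3.61, 3.52 and 3.56 in untreated 9 h and 4.32, 4.19 and 4.11 in blocked 9 h cultures. At 26 h the order was turned, with 4.25, 4.21 and 4.07 in untreated and 3.78, 3.59 and 3.51 in blocked cultures. At neither time did the groups overlap. The 6 arrays of scan day 1 ranged from 3.51 to 3.78 and the 6 arrays of scan day 2 from 4.07 to 4.32, so that the 2 days did not overlap either. At 9 h the difference was 0.64 (SE 0.10, adjusted p = 0.00247 in limma), 1.56-fold higher, and at 26 h it was -0.55 (SE 0.10, adjusted p = 0.00681 in limma), 1.46-fold lower. Both calls were lost without all arrays of replicate number 2 (0.63, adjusted p = 0.139, and -0.52, adjusted p = 0.254 in limma), and the one at 26 h also without number 3 (-0.54, adjusted p = 0.0896).

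The average over both times, balanced over the days, was 0.05 for the main probe of Hsp90ab1 (95% confidence interval -0.11 to 0.21, limma with Benjamini-Hochberg adjusted p = 0.829). Within a day, blocked and untreated cultures differed on this probe by 0.06 on day 1 and by 0.03 on day 2. Ordered by group mean, blocked 9 h (4.21 ± 0.11, SD, n = 3) and untreated 26 h cultures (4.17 ± 0.09, SD, n = 3) did not differ beyond their spread, nor did blocked 26 h (3.63 ± 0.14, SD, n = 3) and untreated 9 h cultures (3.57 ± 0.04, SD, n = 3). The step between those pairs is the difference at 26 h given above.

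A second probe of Hsp90ab1, A_64_P045716, repeated only part of this. It gave 2.35, 2.48 and 2.44 in untreated 9 h and 3.06, 3.22 and 2.99 in blocked 9 h cultures, a difference of 0.66 (SE 0.13, adjusted p = 0.00764 in limma over all kept probes). At 26 h it gave 3.38, 3.28 and 3.09 in untreated and 3.49, 3.02 and 3.13 in blocked cultures, a difference of -0.04 (SE 0.13, adjusted p = 0.891 in limma). The probes therefore disagreed at 26 h, and the fall seen there rests on the main probe. With the mean of both probes it was -0.29 (adjusted p = 0.103 in limma). The blockade difference averaged over both times was 0.31 for the second probe (SE 0.095, adjusted p = 0.109 in limma) and did not pass. Its interval lay above 0 before adjustment, from 0.10 to 0.52, unlike that of the main probe. The second probe also rose between 9 h and 26 h by 0.47 (SE 0.095, adjusted p = 0.0106 in limma), where the main probe differed by 0.01. Within scan day 1 the second probe was higher in blocked 26 h than in untreated 9 h cultures by 0.79 (adjusted p = 0.00438 in limma). Within scan day 2, its blocked 9 h cultures differed from untreated 26 h cultures by -0.16 (adjusted p = 0.634 in limma). Its values on the 2 days overlapped, and within a day blocked and untreated cultures also differ in time.

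The main probe of Hsp90aa1 gave 4.06, 4.27 and 4.10 in untreated 9 h, 4.21, 3.95 and 3.87 in blocked 9 h, 4.41, 3.98 and 3.86 in untreated 26 h, and 4.40, 4.11 and 4.16 in blocked 26 h cultures, 1 of these last 3 spots being saturated. All groups overlapped. The averaged difference was 0.00 (95% confidence interval -0.24 to 0.25). Its probes A_64_P023633 and A_44_P299870 differed by 0.11 (SE 0.12, adjusted p = 0.748 in limma) and 0.31 (SE 0.12, adjusted p = 0.240 in limma). The interval of A_44_P299870 lay above 0 before adjustment, from 0.03 to 0.59. Within scan day 1 that probe was higher in blocked 26 h than in untreated 9 h cultures by 0.74 (adjusted p = 0.0206 in limma). Within scan day 2, blocked 9 h cultures differed from untreated 26 h cultures by -0.12 (adjusted p = 0.817 in limma). These comparisons within a day also differ in time. Only A_44_P299870 passed between the times, higher at 26 h by 0.43 (SE 0.12, adjusted p = 0.0468 in limma over all kept probes). The highest spot of that probe, 4.18 in blocked 26 h replicate 1, was saturated and was used at its value.

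**Figure D3:**
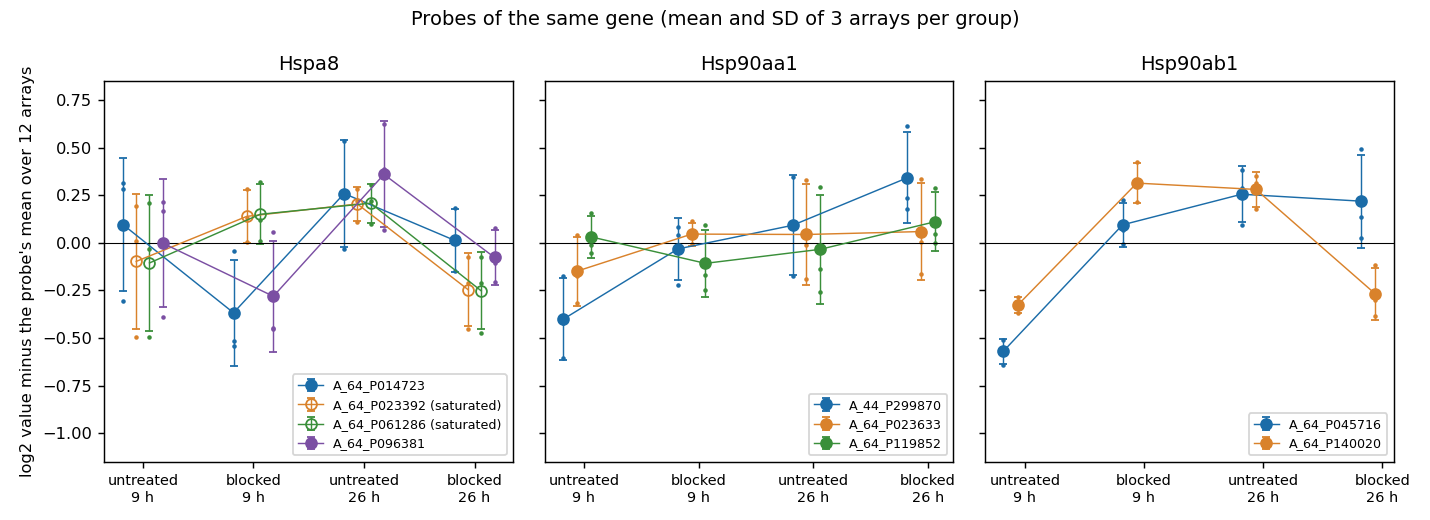
Probes of Hspa8, Hsp90aa1 and Hsp90ab1 by group (x axis), as log2 value minus the mean of that probe over 12 arrays (y axis), with small dots for single arrays, circles for means and whiskers for the SD of 3 arrays; open circles are probes saturated on all arrays. The saturated and unsaturated probes of Hspa8 part at blocked 9 h, and the probes of Hsp90ab1 part at blocked 26 h.

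Dnaja1 codes for a J-domain protein that delivers clients to HSP70. It gave 3.36, 3.44 and 3.39 in untreated 9 h and 3.10, 3.06 and 3.34 in blocked 9 h cultures, a step down without overlap that did not pass (-0.23, SE 0.14, adjusted p = 0.293 in limma). At 26 h it gave 3.62, 3.16 and 3.15 in untreated and 3.66, 3.49 and 3.49 in blocked cultures, which overlapped. The average was 0.01 (95% confidence interval -0.21 to 0.22). In order, the group means were 3.55 ± 0.10, 3.39 ± 0.04, 3.31 ± 0.27 and 3.17 ± 0.15 (SD, n = 3) for blocked 26 h, untreated 9 h, untreated 26 h and blocked 9 h cultures. No neighbours in that order differed at an unadjusted p under 0.05.

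Hspb1 codes for HSP27, a small heat shock protein that holds unfolded proteins without using ATP and is abundant in glia and vessel cells. It gave 1.72, 2.07 and 2.80 in untreated 9 h, 1.43, 1.78 and 2.13 in blocked 9 h, 0.57, 3.41 and 3.81 in untreated 26 h, and 2.13, 1.86 and 3.07 in blocked 26 h cultures. Untreated 26 h replicate 1 was the lowest of all arrays and replicates 2 and 3 of its group the highest. The SD within groups was 0.99, above that of 98.4% of genes with a value on every array, and the averaged difference of -0.33 had an SE of 0.51. Replicate 3 was the highest in 4 of 4 groups. The summed level of 10 meningeal, fibroblast and vascular markers was likewise highest in replicate 3 of 4 of 4 groups: it was 1.65, 2.89 and 5.09 in untreated 9 h and 1.504, 2.65 and 4.80 in untreated 26 h cultures, replicates in order. In blocked cultures it was 0.68, 2.52 and 5.07 at 9 h and 1.34, 3.18 and 5.05 at 26 h. The summed astrocyte markers were also highest in replicate 3 of 4 of 4 groups, at 6.22 to 6.53 there and 5.84 to 6.04 in replicate 1. The oligodendrocyte lineage markers were highest in replicate 3 of 3 groups, the microglia markers of 1 and the pan-neuronal markers of 0. The part of any of these cells in the Hspb1 signal was not tested.

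Hspd1 was the steadiest member, with an SD within groups of 0.088, above that of 6.41% of genes. It gave 3.73, 3.64 and 3.74 in untreated 9 h, 3.91, 3.72 and 3.64 in blocked 9 h, 4.01, 3.95 and 3.84 in untreated 26 h, and 3.79, 3.75 and 3.80 in blocked 26 h cultures. At 26 h the untreated arrays lay above the blocked ones without overlap, and the difference of -0.16 (SE 0.095, adjusted p = 0.290 in limma) did not pass. The average was -0.05 (95% confidence interval -0.20 to 0.10). Its head-to-head neighbour Hspe1, looked up because of the shared window, differed by -0.16 (SE 0.10, adjusted p = 0.549 in limma), with 4 of its 12 spots saturated.

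At single times the share of genes that passed was much larger than on average, and the members were read against it. At 9 h, 1 of 8 members was higher and 0 were lower, where 21.1% of all genes passed, 11.4% higher and 9.64% lower. The median difference of the members was -0.10 (-0.14 for the 7 without the saturated Hspa8), against 0.02 for all genes. At 26 h, 0 members were higher and 2 were lower, Hsph1 and Hsp90ab1, where 16.4% of genes passed, 6.88% higher and 9.48% lower. The median was -0.20 (-0.16 for the 7 without Hspa8), against -0.05 for all genes. Groups did not overlap in 2 members at 9 h, where 34.7% of all genes showed this, and in 5 members at 26 h, where 38.1% did. One of these 5 was the saturated main probe of Hspa8.

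The effect of blockade at 26 h minus that at 9 h passed in 2 of 8 members, both lower, where 28.6% of all genes passed, 12.7% higher and 15.9% lower. It was -1.19 for Hsp90ab1 (SE 0.14, adjusted p = 4.25e-04 in limma) and -0.66 for Hsph1 (SE 0.17, adjusted p = 0.0199 in limma). The second probe of Hsp90ab1 gave -0.70 (SE 0.19, adjusted p = 0.0202 in limma). Scan day lies exactly along this difference and cannot be told apart from it.

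Between the times, averaged over treatments and balanced over the days, 0 of 8 members passed in limma, where 12.7% of genes did, 4.93% higher and 7.78% lower. At an unadjusted p under 0.05 there were 2, Hspa4 (0.40) and Hsph1 (-0.21). The share of all genes at that level is not given here, so that this count is not read as a result about the members. The median difference was 0.10 (0.13 for the 7 members without the saturated Hspa8), against -0.02 for all genes.

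The wider chaperone network was given by 8 lists with 112 genes, of which 100 were measured. Blockade on average raised 1, Hspa12a, and lowered 1, Dnajb3, which is 2% of the 100, beside the 4.45% of all genes. Hspa12a, a distant relative of HSP70, gave -0.08, 0.31 and 0.21 in untreated 9 h and 1.08, 1.20 and 1.13 in blocked 9 h cultures. At 26 h it gave 0.89, 1.01 and 1.09 in untreated and 0.98, 1.05 and 1.21 in blocked cultures. Only the untreated 9 h arrays stood apart, all below the rest. Its averaged difference was 0.54 (SE 0.083, adjusted p = 0.00532 in limma). Dnajb3, a J-domain gene, differed by -0.32 (SE 0.066, adjusted p = 0.0227 in limma). When replicate numbers were blocked, 11 network genes passed, 4 of them higher and 7 lower, and so did 13.2% of all genes.

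Of the other lists, 0 of 4 measured genes of the heat shock factor list (Hsf1, Hsf2, Hsf4 and Hsbp1, whose product binds these factors), 0 of 12 HSP70 co-chaperones, 0 of 19 HSP90 co-chaperones, 0 of 13 subunits of the cytosolic chaperonin and prefoldin, 0 of 7 other small heat shock proteins and 0 of 19 organelle chaperones passed for blockade on average in limma. At an unadjusted p under 0.05 these lists held 0, 2, 2, 1, 1 and 2 genes, and the share of all genes at that level is not given here. Hsf1, named after its values were seen, gave 0.29, 0.06 and 0.30 in untreated 9 h, 0.59, 0.35 and 0.46 in blocked 9 h, 0.47, 0.36 and 0.38 in untreated 26 h, and 0.00, -0.34 and -0.13 in blocked 26 h cultures. The blocked 26 h arrays of Hsf1 were below its others, and the share of all genes with this pattern is not given here. Of the 4 measured genes of that list, 1 was lower and 0 were higher at 26 h, where 16.4% of all genes passed. Their median difference at 26 h was -0.01. The averaged difference of Hsf1 was -0.16 (SE 0.083, adjusted p = 0.404 in limma), and at 26 h, where day and blockade cannot be told apart, it was -0.56 (SE 0.12, adjusted p = 0.0113 in limma).

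Between 9 h and 26 h, 5 of the 100 genes rose and 7 fell in limma, which is 12% beside 12.7% of all genes, so that the share was near the background. Blocking by replicate number gave 29, of which 15 were higher and 14 lower, with 26.8% of all genes passing. The largest fall was that of Bag3, a co-chaperone that links HSP70 to selective autophagy. It gave 1.68, 1.42 and 1.98 in untreated 9 h and 0.74, 0.44 and 0.90 in blocked 9 h cultures, then -0.50, -0.08 and 0.47 in untreated 26 h and 0.11, 0.27 and 0.81 in blocked 26 h cultures. The untreated 9 h arrays were highest, and the other groups overlapped. Averaged over both treatments, Bag3 fell by 1.01 between the times (SE 0.19, adjusted p = 0.00740 in limma). Its untreated arrays did not overlap between the times, whereas its blocked arrays did. Each of these comparisons spans both scan days, so that time and scan day cannot be told apart in them. The share of all genes with this pattern is not given here. Hspb8, a small heat shock protein whose product binds BAG3, fell by 0.91 (SE 0.20, adjusted p = 0.0143 in limma).

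Further falls were those of Dnajb3 (-0.88), Fkbp5 (-0.55), whose product is an HSP90 co-chaperone of steroid receptors, Dnajb9 (-0.43) of the endoplasmic reticulum, Dnajc21 (-0.43) and Hspa9 (-0.34), the mitochondrial HSP70. The rises were those of Calr (0.66) and Canx (0.33), the lectin chaperones of the endoplasmic reticulum, Bag2 (0.48), a co-chaperone of HSP70, Hspa12a (0.40) and Hikeshi (0.31), which carries HSP70 into the nucleus.

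**Figure D4:**
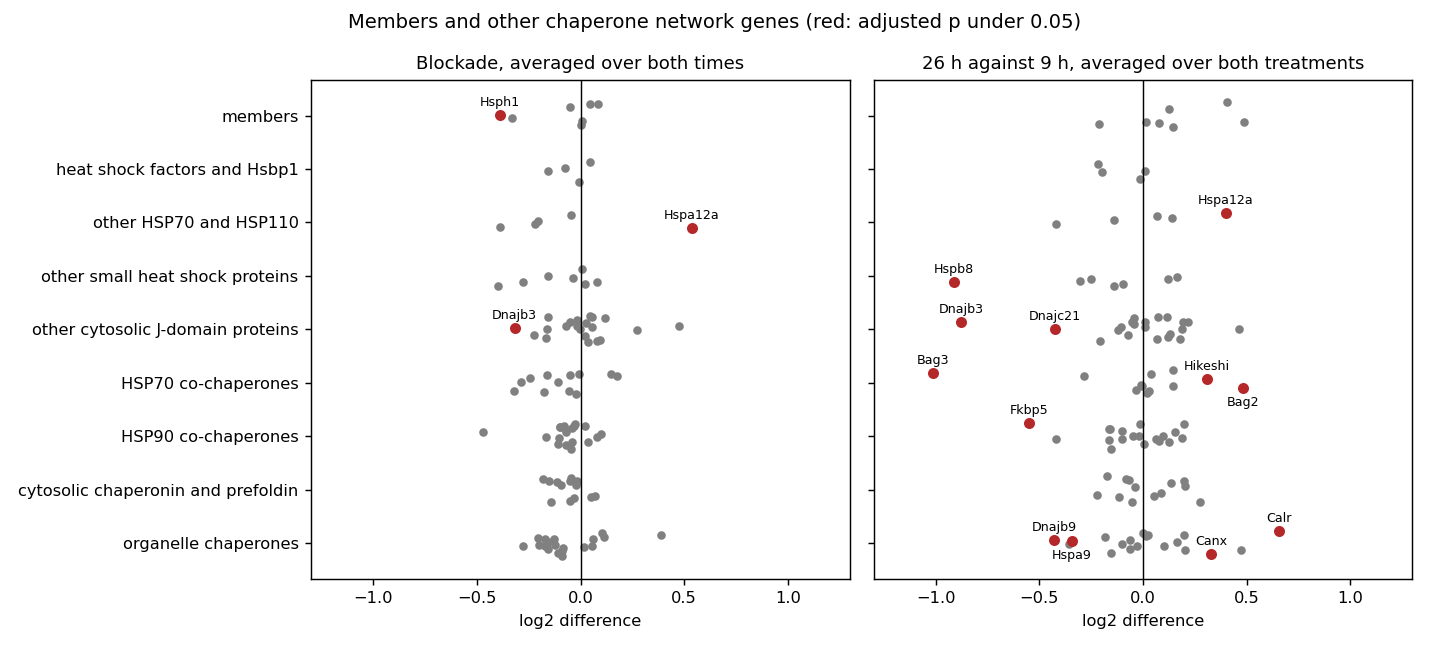
Log2 differences (x axis) of 7 members, without the saturated Hspa8, and of 100 other chaperone genes in 8 lists (rows, with points spread vertically at random), for blockade averaged over both times (left) and 26 h against 9 h (right). Red points with names passed at an adjusted p under 0.05 in limma: 3 for blockade and 12 for time, none of the latter a member.

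The genes outside all lists whose levels ran most like the mean standardised profile of the 7 members other than Hspa8 were Cdc7 (Pearson r = 0.87), Cic (0.85), Bhlhe40 (0.82), Tcf4 (0.81), Rpl27a (0.81) and Syt10 (0.81). These are descriptions over 12 arrays that share slides and scan days, picked from 12161 genes with a symbol. The 7 members did not share 1 profile: their pairwise r ran from -0.55 (Hsp90aa1 with Hspb1) to 0.72 (Hsp90aa1 with Dnaja1).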

How the data were processed

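Total RNA (200 ng) was Cy3-labelled and each sample was hybridised to its own Agilent array, per the labels. The authors deposited scanner output of Agilent Feature Extraction 10.5.1.1, per the file headers, whose processed signal is an intensity corrected for background with no scaling between arrays. A deposited matrix holds log2 values. Each of its columns is log2 of the processed signal minus a constant of that array (slope 1.000, column medians 7.57 to 7.75), and the rule of the constants is not given in the sources used here.

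Values used here are log2 processed signal minus the 75th percentile. The 3751 spot values marked as outliers were left out, spots of a probe were averaged, and 24029 probes were kept that exceeded background well on every array of 1 group or more. Probes were named through transcript accessions in a RefSeq table of rat genes: 18004 of 30367 matched. The array design is older than that table. Saturated spots were kept and counted.

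A linear model with 1 mean per group was fitted to all 12 arrays (limma 3.58.1, R 4.3.3; lmFit and eBayes, two-sided, Benjamini-Hochberg over 21245 genes, threshold 0.05). The fit was also run on simulated arrays. Their errors were drawn independently, without slide, scan day or replicate effects, so that this run does not bear on such effects. Fits of single probes were adjusted over all kept probes, a choice made after seeing the data. The median SE was 0.12 for the averaged blockade effect and 0.17 at 1 time. Promoter sequences and motifs came from RefSeq windows on GRCr8. The number of arrays limits the precision.

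Network genes were named if they passed for averaged blockade or for time, at most 4 per list and direction, and 6 genes by likeness to the members. Members and lists were chosen with earlier results of these data known. After removal of group means, untreated and blocked arrays of a time with the same replicate number correlated across genes at 0.18 to 0.66. The fits reported here held no term for these pairs, and a fit with the number as a block was run as an alternative. The labels do not state what a number marks. Alternatives were background correction (normexp, offset 50), scaling to the median, quantile normalization, the deposited matrix, no filter, outlier spots kept, other probe rules, array weights, replicate or slide as a block, and arrays left out.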

Additional observations from a re-analysis of the deposited data

Results flagged for a closer look

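The effect of blockade at 26 h minus that at 9 h, tested itself, passed in 2 of 8 members, both lower. Of all genes 28.6% passed this test, 12.7% higher and 15.9% lower, so that the members did not stand out from that share. For Hsp90ab1 the effect at 26 h minus that at 9 h was -1.19 (SE 0.14, adjusted p = 4.25e-04 in limma), and it passed in 12 of 12 fits that left out 1 array. For Hsph1 it was -0.66 (SE 0.17, adjusted p = 0.0199 in limma), and it passed in 10 of 12 such fits; the exceptions left out untreated 9 h replicate 3 (-0.62) and untreated 26 h replicate 2 (-0.63). With all arrays of 1 replicate number left out, it did not pass for Hsp90ab1 without number 2 (-1.14, adjusted p = 0.0657 in limma), nor for Hsph1 without number 2 (-0.53, adjusted p = 0.196 in limma) or number 3 (-0.61, adjusted p = 0.189 in limma). Scan day cannot be told apart from this difference. With 3 arrays in a group, no test for single outlying arrays was run.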

How the results depend on the processing

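The number of arrays and, for Hspa8, saturation limit what can be read. Of single-gene results that passed, 0 changed direction in any alternative. The count of members lower under averaged blockade, 1, became 0 with normexp correction (Hsph1 -0.35, adjusted p = 0.0586 in limma), scaling to the median, the deposited matrix (-0.26, adjusted p = 0.399), no filter or outlier spots kept, and 0 to 1 with arrays left out. It stayed at 1 with the replicate block (-0.38, adjusted p = 0.0232). At 26 h the 2 members became 1 with quantile normalization or the mean of probes, 4 with array weights and 0 to 3 with arrays left out. At 9 h, arrays left out gave 0 to 1. Between times, 0 became 1 with array weights and with slide as a random block, and 0 to 1 with arrays left out. The difference of the effects, 2 members, gave 1 with median scaling or slide as a random block, 4 with quantile normalization and 0 to 3 with arrays left out. The saturated Hspa8 probe, which is not read, is among the members counted at 26 h without untreated 9 h replicate 1 and with weighted arrays, and for the difference with the replicate block, the deposited matrix and without untreated 9 h replicate 2. The replicate block changed no other call of a member. Network genes passing for averaged blockade, 2, became 1 with median scaling or the deposited matrix, 11 with the replicate block, 13 and 5 with slide as a random or fixed block, 6 with array weights and 0 to 3 with arrays left out. For time, 12 became 29, 32, 21 and 19 under those last 4 settings in that order and 1 to 13 with arrays left out. Over all genes, 945 became 2799 for averaged blockade and 2700 became 5687 for time with the replicate block. Across the settings that kept all arrays, the counts over all genes ran from 725 to 2993 for averaged blockade and from 2078 to 6031 for time. They ran from 2627 to 7423 for blockade at 26 h and from 3531 to 9507 for the difference. Member and network counts that moved are therefore not read as results about chaperones. Slide as a fixed block gives no value at a single time.

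Signs turned only in results that did not pass. These were Hsph1 at 9 h (normexp 0.020, deposited matrix 0.16, outlier spots kept 0.11) and Hsp90aa1 with the mean of probes or the brightest unsaturated probe (0.14 and 0.19 at 9 h, -0.0050 and -0.18 for the difference) or with array weights (-0.015 for averaged blockade, -0.012 for time). Others were Hsp90ab1 for time (normexp -0.020, quantile -0.049), Dnaja1 for averaged blockade (normexp -0.0071), Hspb1 for the difference (array weights -0.45) and Hspd1 with quantile normalization (-0.046, 0.043 and 0.089 at 9 h, at 26 h and for the difference). With arrays left out, the ranges that cross 0 were, for averaged blockade, Hspa4 -0.11 to 0.29, Hsp90aa1 -0.053 to 0.084 and Dnaja1 -0.065 to 0.085. At 9 h they were Hsph1 -0.14 to 0.026, Hspa4 -0.34 to 0.097 and Hspd1 -0.023 to 0.13. For time they were Hsp90aa1 -0.020 to 0.15 and Hsp90ab1 -0.024 to 0.044. Hspb1 ran from -1.25 to 0.41 at 26 h and from -0.83 to 0.89 for the difference. The unsaturated Hspa8 probe kept its directions at 9 h, at 26 h, on average and for time and never passed, in alternatives added after seeing the data (averaged -0.45 to -0.29). The cause of these changes was not tested.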
